A study of Danio rerio with 16 samples.

Results

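The whole head of the adult zebrafish (Danio rerio) was set against whole embryos at 24hpf (hours post fertilisation), gene by gene across the transcriptome. The comparison used 4 of the 7 libraries: 1 library from the entire head of wild type adults of the AB strain, and 3 biological samples of wild type AB whole embryos. Genes were taken in by identifier, and of the 28364 gene identifiers present in every count file, 21128 had enough reads to be tested. Neither group carried a mutation, a transgene or a treatment. All RNA was extracted with Trizol and made into mRNA libraries with a TruSeq kit. The labels do not say how many heads, of what age or sex, went into the head library, nor whether the 3 embryo samples came from separate crosses, so the spread behind the p-values may be technical and is that of these samples alone.

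At 24hpf a zebrafish has its body plan in place. The neural tube is divided into brain regions, segmented muscle twitches along the trunk, a heart tube beats, and much of the tissue is still dividing while yolk feeds the animal inside its egg envelope. An adult head holds a working brain, retina, lens, pituitary, olfactory and taste organs, inner ears, jaws, teeth, gills, skin, thymus, and the blood and muscle that run through them. The comparison therefore joins a difference of age with a difference of body region. In bulk RNA, fewer cells of a type and less RNA per cell cannot be told apart.

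The embryo samples had 40899061 to 44962951 reads counted on genes and the head had 8017208. The embryo files were counted on an annotation of 28491 genes and the head file on one of 32313. Of the shared identifiers, 16558 have the same locus in both annotations (the same chromosome, start and end on Zv9), 11751 have a different one and 55 have several. Levels are given as CPM, reads of a gene per 1000000 counted reads, after scaling by edgeR's trimmed mean of M values (TMM), in the order embryo sample 1, 2, 3, then head. Log2 changes are head minus 24hpf. The value after ± is an approximate standard error (SE), derived from the test named next. It is the absolute log2 change divided by the square root of the F statistic of that test. A gene was called when its Benjamini-Hochberg adjusted p from edgeR's quasi-likelihood test was under 0.05. The single head library was assumed to vary as the embryo samples do. Most genes named below were chosen from the called genes, so a head value outside their embryo range follows from that choice and adds no support. A pool of 16-36hpf embryos, counted on the annotation of the head file and at a similar depth, served as a further reference without replicates. Age, body region, annotation and depth cannot be told apart in the main comparison, whereas annotation and depth do not separate the head from that pool.

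Most tested genes were called. In all 13233 genes (62.6%) differed, 6806 (32.2%) with a higher level in the head and 6427 (30.4%) with a lower one. The median log2 change was 3.11 among the genes called higher and -2.07 among those called lower. A log2 change of 5 or more was found for 1488 genes, and of -5 or below for 752. Among the 9957 tested genes with the same locus, 3472 (34.9%) were higher and 2617 (26.3%) were lower. When these genes were fitted and scaled alone, 3109 were higher and 2983 lower. The head also stood at least 2-fold above the pool for 5528 of the genes called higher (26.2% of all tested) and at least 2-fold below it for 4099 of those called lower (19.4%). Scaling by library totals alone moved the median log2 change of all tested genes from -0.01 to 0.53. The split then became 8365 higher and 4516 lower. Every gene called higher under TMM was also called higher with library totals, and 4516 of the genes called lower stayed lower. Among organ markers, all 10 of the retina and 5 of 7 of neurons were higher in the head. Of 5 markers of dividing cells 4 were lower. Markers of other head tissues were mixed. Astroglia had 0 of 3 higher and 1 lower, cartilage and bone 2 of 4 higher and 2 lower, and skin 1 of 4 higher and 1 lower. All 3 tested markers of the exocrine pancreas, an organ outside the head, were higher as well.

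The genes were grouped into 75 lists by what they are known to do. With so many genes called, a list is read against 32.2% higher and 30.4% lower over all tested genes. Scaled levels do not sum to the same total in each library. Over all tested genes they summed to 1162548, 1127377 and 1268165 CPM in the embryos and 810587 CPM in the head. The summed level of a list is read against that fall.

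**Figure D1:**
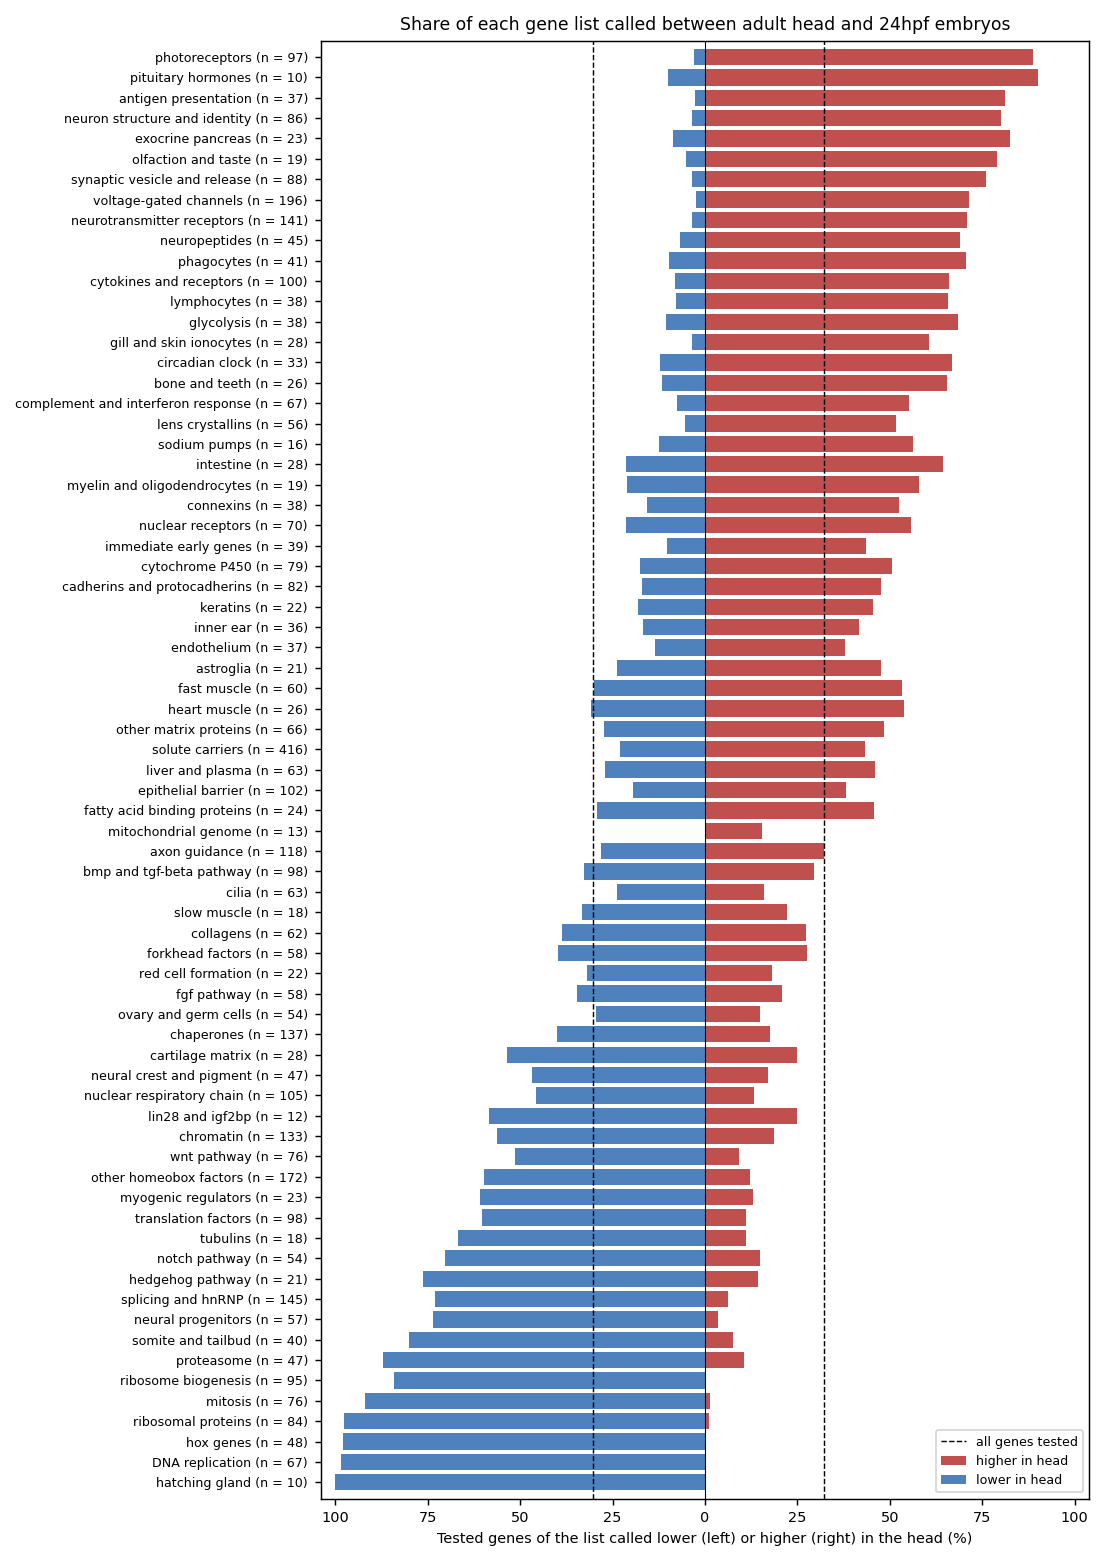
Share of the tested genes of each list (lists with at least 10 tested genes, n beside the name) called lower (blue, to the left) or higher (red, to the right) in the adult head than in 24hpf embryos, in percent. Dashed lines mark the shares over all tested genes, 30.4% lower and 32.2% higher. Photoreceptor, pituitary, antigen presentation, exocrine pancreas and neuronal lists reach furthest to the right, and hatching gland, DNA replication, hox and ribosomal protein lists furthest to the left.

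The list of photoreceptors and the visual cycle, which also took in wider relatives by symbol such as gucy1a3 and gnb1b, had 97 tested genes. Of these, 86 were higher in the head and 3 lower, with a median log2 change of 6.45. Among the 38 with the same locus, 32 were higher and 0 lower. Summed over the list, the level was 439.7, 404 and 434 CPM in the embryos and 15501 CPM in the head. The gene of the rod visual pigment, rho (Zv9 chromosome 8, 55706885 to 55708411, ENSDARG00000002193), had 0.084, 0 and 0 CPM in the embryos, 3 reads in all, and 3811 CPM in the head. The head exceeded the embryos 136373-fold (95% counting interval 46661 to 661316, adjusted p = 1.28e-05). The 5-day larva stood at 969 CPM and the adult tail at 0.338 CPM. All embryo samples lie far below the head.

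Cone genes and further photoreceptor genes were higher as well. The ultraviolet cone opsin opn1sw1 had no read in any embryo sample and 246 CPM in the head, which is at least 8808-fold higher against a limit of 3 reads over the embryos. In the deposited FPKM it was at 0 and 157. The cone phosphodiesterase subunit pde6h (chromosome 6, 269176 to 297339) had 0.392, 0.221 and 0.452 CPM and 1453 CPM (log2 change 11.98 ± 0.38). The catalytic subunit pde6c of the same enzyme had 6.35, 6.85 and 5.31 CPM and 597 CPM. Interphotoreceptor retinoid binding protein, irbp, which carries retinoids between the photoreceptors and the pigment epithelium, had 0.7, 1.19 and 0.537 CPM and 558 CPM (9.42 ± 0.41). The arrestin gene sagb, whose protein quenches activated opsin, had 0.42, 0.469 and 0.424 CPM and 152 CPM. The gene guca1d, a guanylate cyclase activator, had 0.056, 0.0552 and 0 CPM and 38.2 CPM. In each of these genes every embryo sample was far below the head. The list also held an opposed pair of retinoid isomerase genes: rpe65a had 3.08, 3.15 and 3.08 CPM and 161 CPM, while RPE65 (1 of 3) had 63.7, 46.4 and 56.7 CPM and 1.57 CPM. The latter is at 3.1 CPM in the embryo pool, so the head does not stand below that reference by the factor of 2.

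Lens crystallins, the soluble proteins that make the lens transparent, were higher for 29 of 56 genes and lower for 3. The number lower rests on single embryo samples: it was 1 without sample 1, 17 without sample 2 and 6 without sample 3, while the number higher was 28 to 29. The beta-crystallin crybb2 had 0.028, 0 and 0 CPM and 866 CPM. The gene crybb3 had 1.34, 1.35 and 1.55 CPM and 465 CPM (8.35 ± 0.27). For the gamma-crystallin crygm6 no embryo read was counted, against 415 CPM in the head, at least 14854-fold. A pair of near relatives moved apart: cryba1a went from 0.112, 0.0276 and 0.282 CPM to 454 CPM, and cryba1b from 38.3, 13 and 49.5 CPM to 7.34 CPM. For cryba1b the embryo samples themselves differ widely, and its call (log2 change -2.19 ± 0.76) was lost without embryo sample 1 (log2 change -2.09, adjusted p = 0.0788). In the pineal list, 4 of 7 genes were higher, among them aanat2, the enzyme that sets the night rhythm of melatonin, at 1.54, 1.96 and 1.75 CPM and 21.3 CPM.

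**Figure D2:**
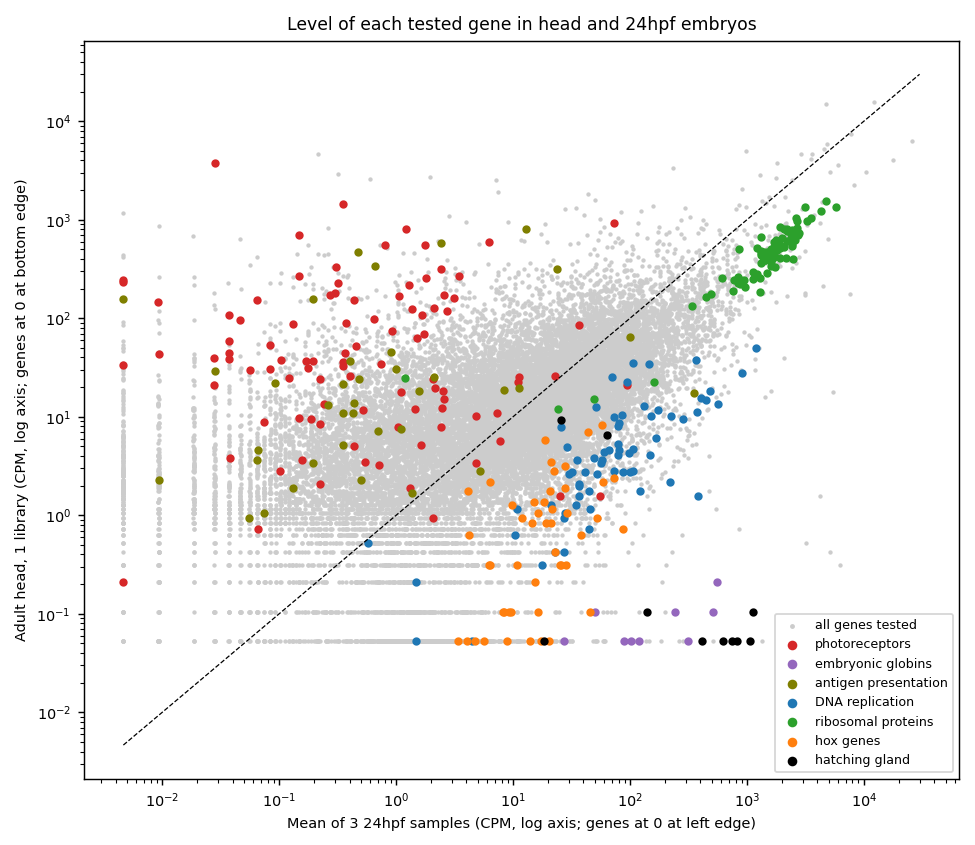
Level of each tested gene as the mean of 3 24hpf samples (horizontal, CPM, log axis) and in the 1 adult head library (vertical, CPM, log axis). Genes without a read are drawn at the edges, the dashed line marks equal levels, and 7 lists are coloured. Most photoreceptor and antigen presentation genes lie above the line and most ribosomal proteins just under it, with exceptions such as RPE65 (1 of 3), ctssb.1 and rps8b, and most DNA replication, hox, embryonic globin and hatching gland genes well under it.

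Most tested genes of neuronal signalling were higher in the adult head. Of 88 genes of synaptic vesicles and transmitter release 67 were higher and 3 lower. Among neurotransmitter receptors the counts were 100 and 5 of 141, and among voltage-gated channels 140 and 5 of 196. Median log2 changes of these lists were 2.97, 3.05 and 3.15, and over genes with the same locus 2.72, 3.08 and 3.02. Of those listed, 141 of 169 receptors and 196 of 221 channels passed the filter. A gene that passed through the head alone had to be higher there, so the shares and medians of these 2 lists are no measure of the families. Among genes of at least 10 CPM, 41 receptors and 58 channels were higher, from fewer genes. By contrast the general neuronal RNA-binding protein genes elavl3 and elavl4 were not called. They had 124, 116 and 93 CPM and 90.2 CPM, and 43.2, 43.2 and 49.2 CPM and 54.3 CPM, so for elavl3 the head lies just under the lowest embryo sample. The gene elavl4 was called higher with library totals (adjusted p = 0.0207) and in limma on FPKM (adjusted p = 0.00448). Without embryo sample 2 the lower genes of the synaptic vesicle list numbered 1, and without sample 1 those of the receptor and channel lists numbered 3 and 3; for channels it was 3 without sample 2.

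At the presynaptic side, the membrane fusion protein gene snap25b had 7.81, 5.05 and 9.46 CPM in the embryos and 298 CPM in the head (5.32 ± 0.34, adjusted p = 5.88e-05). The calcium sensor of release syt1a had 6.66, 6.02 and 6.7 CPM and 208 CPM (5.01 ± 0.24). The synuclein gene sncgb had 10.2, 9.47 and 17.9 CPM and 615 CPM (5.62 ± 0.37). These genes have the same locus in both annotations. On the inhibitory side, gad2, which makes the transmitter GABA, had 4.0, 2.68 and 2.8 CPM and 284 CPM. The extrasynaptic GABA receptor subunit gabrd had 2.91, 2.02 and 2.68 CPM and 92.7 CPM. On the excitatory side, the obligatory subunit of NMDA receptors has 2 copies. The copy grin1a had 9.63, 6.41 and 8.98 CPM and 315 CPM. The copy grin1b had 0.616, 0.138 and 0.763 CPM and 157 CPM. Their log2 changes were 5.24 ± 0.29 and 8.27 ± 0.57, and the difference between the copies was not tested. Sodium channels of the scn family were higher in 13 of 13, with scn8aa at 10.2, 10.7 and 20.9 CPM and 93.6 CPM.

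A few members of the neuronal lists went the other way. The gamma subunit of the muscle acetylcholine receptor, CHRNG, which in mammals is the fetal subunit, fell from 62.1, 61.1 and 68.8 CPM to 5.45 CPM (-3.55 ± 0.34). The beta-tubulin tubb5 fell from 569, 397 and 563 CPM to 65.6 CPM (-2.96 ± 0.38). Tubulins as a family were lower for 12 of 18 genes and higher for 2, with tuba8l4 at 1880, 1753 and 2122 CPM and 338 CPM. Stathmins, which bind free tubulin, split: stmn1a fell from 296, 214 and 187 CPM to 11.8 CPM, while stmn1b rose from 74.2, 58.9 and 69.9 CPM to 238 CPM. The kinase camk2a, a main protein of the postsynaptic density, rose from 8.68, 4.36 and 8.33 CPM to 185 CPM.

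Glial genes split. In the myelin and oligodendrocyte list 11 of 19 genes were higher and 4 lower. Myelin basic protein, mbp (chromosome 19, 22298344 to 22316927), which compacts the sheath, had no read in any embryo sample and 1167 CPM in the head, at least 41751-fold higher. Its deposited FPKM was 0 and 754, and the pool had 0.182 CPM on the annotation of the head. Myelin protein zero, mpz, rose from 14.9, 29 and 18.8 CPM to 345 CPM. The gene mag, an adhesion protein of the innermost wrap, rose from 0.056, 0.0828 and 0.282 CPM to 61.1 CPM. The proteolipid copies crossed: plp1b rose from 0.224, 0.193 and 0.311 CPM to 176 CPM and plp1a fell from 272, 189.7 and 340.4 CPM to 7.45 CPM (9.47 ± 0.32 and -5.16 ± 0.51). Of 21 astroglial genes 10 were higher and 5 lower. The filament gene gfap fell from 236, 246 and 395 CPM to 37.2 CPM. The glutamate transporter slc1a3a fell from 390.3, 273 and 480 CPM to 13.9 CPM, while the other glutamate transporter slc1a2b rose from 56.4, 41.3 and 59.8 CPM to 441 CPM. Glutamine synthetase glula was not called, at 617, 739 and 382 CPM and 785 CPM.

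Hormone genes of the pituitary, which lies under the brain and is part of the head, were higher for 9 of 10 tested genes. Their median log2 change was 6.42, or 3.66 over the 5 with the same locus, and 13 genes were listed. Their summed level was 3.946, 2.292 and 2.401 CPM in the embryos and 213.6 CPM in the head. A gene that passed the filter through the head alone had to be higher there, so the share is no measure of the family. The shared glycoprotein hormone subunit cga had 0.056, 0.0276 and 0.0283 CPM in the embryos, and 53 CPM in the head (10.26 ± 0.44). Luteinising hormone beta, lhb, had 0.056, 0 and 0 CPM and 43.7 CPM, growth hormone gh1 0, 0 and 0.0565 CPM and 37.5 CPM. Prolactin prl had 0.84, 0.193 and 0.65 CPM and 15.6 CPM. The embryo values of cga, lhb and gh1 rest on a handful of reads, and those of prl on 60. The second pro-opiomelanocortin gene pomcb was lower, at 2.1, 1.1 and 1.07 CPM and 0.105 CPM, 1 read in the head. That call was lost without embryo sample 2 (adjusted p = 0.0563) and in DESeq2 (adjusted p = 0.135). Of 51 listed neuropeptide and processing genes 45 passed the filter, so their share carries the limit given above for the pituitary. Of these 31 were higher and 3 lower. The processing protease pcsk2 rose from 13, 11.1 and 16.3 CPM to 69.1 CPM, and the somatostatin gene sst2 fell from 4.7, 5.44 and 7.26 CPM to 0.315 CPM.

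The other sense organs gave smaller counts. Of 206 olfactory and taste genes listed only 19 passed the filter, and 15 of these were higher; a gene that passes through the head alone had to differ, so the share is no measure of the family. The olfactory marker protein gene ompa had 0.28, 0.221 and 0.254 CPM and 9.65 CPM. Its partner ompb had 0.028, 0.0552 and 0.0565 CPM and 1.36 CPM. In the inner ear list 15 were higher and 6 lower of 36. Genes of the ear stones were among the latter: otopetrin OTOP1 fell from 23.1, 33.5 and 27.7 CPM to 2.2 CPM. Otoconin OC90 (1 of 2) fell from 12.4, 34.7 and 19.5 CPM to no read. The hair bundle cadherin CDH23 (2 of 2) rose from 0.28, 0.414 and 0.198 CPM to 10.6 CPM. Ionocytes, the ion-transporting cells of gill and skin, had 17 of 28 genes higher, led by the ammonia channel rhcgb at 0.028, 0.138 and 0.0848 CPM and 63.7 CPM (9.47 ± 0.47).

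In the skeleton, cartilage genes were mostly lower and bone genes mostly higher. Of 28 cartilage matrix genes 15 were lower and 7 higher, and of 26 bone and tooth genes 17 were higher and 3 lower. The summed level of the bone and tooth list was 1152, 960 and 1197 CPM in the embryos and 1085 CPM in the head. Cartilage collagens fell: col2a1a from 2589, 1980 and 1686 CPM to 39.4 CPM, and col11a1a (chromosome 24, 29687372 to 29815776) from 832, 617 and 622 CPM to 17.8 CPM (-5.27 ± 0.43). Both collagens are made in cartilage and, in the embryo, in the notochord. The head lies well under each embryo sample. Aggrecan acana, the proteoglycan of mature cartilage, rose from 6.02, 3.01 and 1.3 CPM to 23.2 CPM. The gene ucma rose from 0.448, 0.111 and 0.0565 CPM to 11.1 CPM. In bone, the master regulator runx2b rose from 4.17, 4.06 and 1.72 CPM to 24.9 CPM. The gene scpp1, a secretory calcium-binding phosphoprotein, rose from 0.028, 0 and 0 CPM to 6.61 CPM. The later osteoblast factor sp7 fell from 11.1, 11.3 and 12.5 CPM to 4.62 CPM (-1.34 ± 0.37), a call lost with library totals (adjusted p = 0.0843) and in DESeq2 (adjusted p = 0.0645).

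Collagens as a family had 24 of 62 genes lower and 17 higher, which turned to 18 lower and 21 higher with library totals. Collagen XVII, a transmembrane collagen that anchors skin cells to the basement membrane, rose: col17a1b (chromosome 13, 24976134 to 25004032) from 0.672, 0.746 and 0.763 CPM to 553 CPM (9.56 ± 0.27). Basement membrane collagen col4a5 fell from 456, 320.3 and 359 CPM to 32.7 CPM. Nidogen NID2 (1 of 2) fell from 374, 442 and 236 CPM to 6.82 CPM. Laminin beta copies crossed, with lamb1b at 15.2, 17.1 and 11.6 CPM and 97.3 CPM, and lamb1a (ENSDARG00000026491) at 191, 319 and 142 CPM and 21.6 CPM.

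Muscle genes went both ways, and several pairs of related copies, chosen for their opposed calls, are given here. In the fast muscle list 32 of 60 genes were higher and 18 lower; against the pool only 16 of the first were at least 2-fold higher, and with the pool joined to the 24hpf group the list had 14 higher and 16 lower. The myosin heavy chain myhb (chromosome 6, 40676632 to 40686586) rose from 0.336, 0.387 and 0.226 CPM to 2917 CPM (13.14 ± 0.37, adjusted p = 1.05e-05). The calcium pump copy atp2a1l rose from 2.8, 0.359 and 2.68 CPM to 2687 CPM while atp2a1 fell from 6019, 2828 and 3815 CPM to 923 CPM. With the pool joined, atp2a1l was no longer called (adjusted p = 0.0538). Troponin T copies also crossed, tnnt3b rising from 201, 68.2 and 201 CPM to 1374 CPM and tnnt3a falling from 356, 169.9 and 346 CPM to 4.09 CPM; the call of tnnt3b was lost with the pool joined (adjusted p = 0.167). In troponin I, tnni2b.2 rose from 0.336, 0.221 and 0 CPM to 330.3 CPM and tnni2b.1 fell from 1226, 890.2 and 1114 CPM to 63.9 CPM. The common fast light chain mylz2 was not called, with 2329, 1332 and 3591 CPM and 2522 CPM. Reads that fit more than 1 place were left uncounted, so close copies such as these are uncertain to the extent that they share sequence.

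Slow muscle had 6 of 18 genes lower and 4 higher, and its 33.3% lower is near the 30.4% of all tested genes. The slow myosin smyhc1 fell from 883, 1451 and 1209 CPM to 30.0 CPM (-5.30 ± 0.48). The slow binding protein mybpc1 rose from 0.364, 0.469 and 0.311 CPM to 259.7 CPM. Among heart genes, 14 of 26 were higher and 8 lower, the latter 5 without embryo sample 1. Their summed level went from 1506, 1331 and 1421 CPM to 1072 CPM, a smaller fall than that over all tested genes. Troponin tnnt2c (chromosome 4, 11096497 to 11098368) fell from 584, 522 and 539 CPM to 1.15 CPM (-8.88 ± 0.46), and its relative tnnt2e rose from 2.41, 2.76 and 1.78 CPM to 75.4 CPM. The atrial peptide nppa was at 3.13, 0.331 and 0.65 CPM and 32.8 CPM, and the heart chain myl7 at 58.9, 45.6 and 37.6 CPM and 152 CPM. Whether heart tissue was in the dissected head was not tested. Regulators of muscle formation were lower for 14 of 23 genes, pax3a falling from 17.3, 19.4 and 22 CPM to 0.42 CPM. The growth brake mstnb rose from 0.084, 0.111 and 0.141 CPM to 39.1 CPM.

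**Figure D3:**
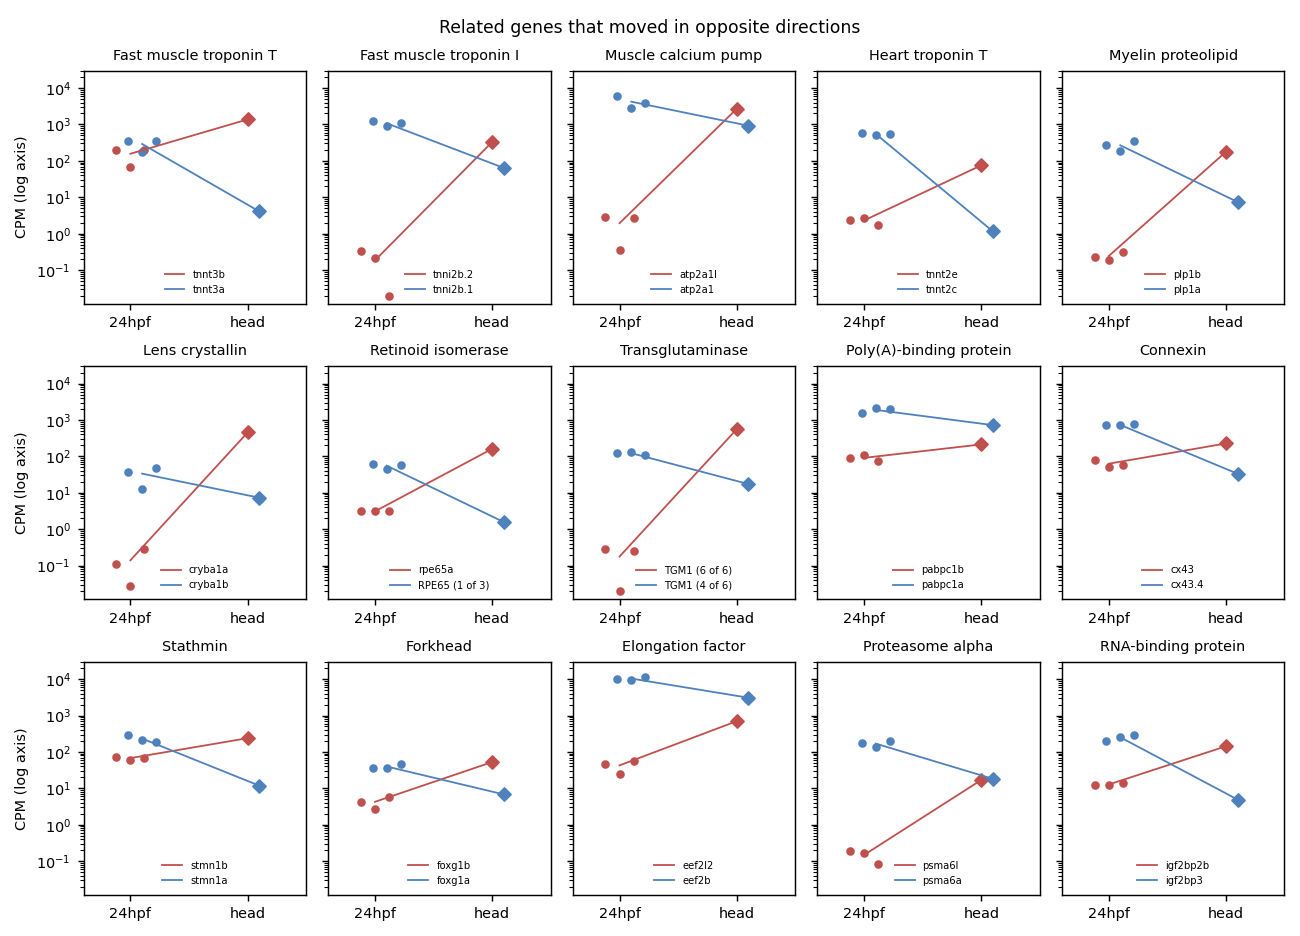
Levels (CPM, log axis) of 15 pairs of related genes in the 3 24hpf samples (circles, left) and the head (diamonds, right), with a line from the embryo mean to the head; red is the copy that was higher in the head and blue the copy that was lower. Values of 0 are drawn at 0.02 CPM. The pairs were chosen for their opposed calls, so the opposite slopes follow from that choice.

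Skin genes went both ways. Of 22 keratin genes 10 were higher and 4 lower. Keratin krt5 of the basal layer rose from 3585, 5761 and 4807 CPM to 15143 CPM, and krt4 of the surface layer fell from 16283, 18634 and 18570 CPM to 4064 CPM. The acidic keratin krt15 rose from 6.61, 4.92 and 10.03 CPM to 2518 CPM (8.45 ± 0.42). Markers krt8 and tp63 were not called. The summed level of the 4 skin markers was 21120, 26535 and 24951 CPM in the embryos and 21049 CPM in the head. Among the barrier genes, 39 of 102 were higher (38.2%, against 32.2% of all tested genes) and 20 lower (19.6%, against 30.4%). Transglutaminase 1 copies, which in mammals cross-link the outer skin, spread widely: TGM1 (6 of 6) rose from 0.28, 0 and 0.254 CPM to 558 CPM, TGM1 (3 of 6) from 0.336, 0.166 and 0.0848 CPM to 199 CPM, and TGM1 (4 of 6) fell from 122, 136 and 110.1 CPM to 17.4 CPM. The actinodin and2, of the fibres in the embryonic fin fold, fell from 7.08, 2.32 and 3.33 CPM to no read.

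Blood showed the exchange of globins. All 9 tested embryonic globin genes were lower, 6 of them with the same locus. All 3 adult globins were higher, but 0 of these have the same locus, so the separation by locus says nothing on them. The median log2 change of the embryonic genes was -12.18, or -8.81 with the 5 genes without a head read set at their limit. Embryonic alpha globin hbae3 (chromosome 3, 55998269 to 55999416) had 659, 417 and 598 CPM in the embryos and 0.21 CPM in the head, 2 reads. Embryonic hbae1 (ENSDARG00000089124) had 139.6, 58.4 and 107 CPM and no read, at least 322.3-fold lower. Adult alpha globin hbaa1 went from 0.224, 0.0828 and 0.339 CPM to 453 CPM (11.01 ± 0.46) and the adult beta globin ba1 from 0.056, 0.138 and 0 CPM to 414 CPM (12.51 ± 0.57). For each of these globins the head lies outside the range of the embryo samples. The haem synthesis gene alas2 of red cells was not called, at 78.8, 59.3 and 84 CPM and 51.2 CPM. The wider red cell list had 7 of 22 lower and 4 higher, which turned to 3 and 6 with library totals. Its 31.8% lower is near the 30.4% of all tested genes.

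Most tested immune genes were higher. Of those listed, 37 of 48 antigen presentation, 38 of 54 lymphocyte and 100 of 147 cytokine genes passed the filter. Their shares higher carry the limit given for the pituitary. Of 37 antigen presentation genes 30 were higher and 1 lower (3 lower without embryo sample 3), with a median log2 change of 4.91. The class II gene mhc2dab had no embryo read and 157 CPM in the head, at least 5626-fold higher, with deposited FPKM of 0 and 114. The class I regulator NLRC5 rose from 0.364, 0.608 and 0.48 CPM to 24 CPM. The cathepsin ctssb.1 was the one lower member, from 388, 385 and 289 CPM to 17.4 CPM. Of 38 lymphocyte genes 25 were higher. The recombinase rag1, active in the developing T cells of the thymus and in B cells, rose from 0.84, 1.19 and 1.16 CPM to 276 CPM (8.01 ± 0.30), with 1.24 CPM in the tail. The chemokine ccl25b, which in mammals draws precursors into the thymus, rose from 1.15, 0.442 and 1.44 CPM to 219 CPM (7.75 ± 0.50). Phagocyte genes had 29 of 41 higher, with the macrophage receptor csf1ra at 4.06, 3.4 and 3.16 CPM and 28.7 CPM and the neutrophil enzyme mpx at 7.89, 5.33 and 6.84 CPM and 16.5 CPM. The summed level of this list went from 3740, 4090 and 3217 CPM in the embryos to 2273 CPM in the head, where that of all tested genes was lower as well. The pool had mpx at 17.3 CPM, above the head, and with the pool joined its call was lost (adjusted p = 0.335). Complement and interferon genes had 37 of 67 higher, the antiviral mxd rising from 0.168, 0.221 and 0 CPM to 26.3 CPM. Among cytokines and their receptors 66 of 100 were higher.

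The proteasome, which degrades proteins and supplies peptides for antigen presentation, had both directions. Of 47 proteasome genes 41 were lower and 5 higher. The base subunit psmd1 fell from 364, 309.5 and 343 CPM to 85.4 CPM (-1.99 ± 0.30). The gene psma6a of the core fell from 175, 137 and 195 CPM to 18.2 CPM. The interferon-inducible catalytic subunit psmb8 rose from 0, 0 and 0.0848 CPM, 3 reads, to 28.9 CPM, and psma6l from 0.196, 0.166 and 0.0848 CPM to 17 CPM (6.78 ± 0.48).

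Cell division was lower nearly without exception. Of 67 DNA replication genes 66 were lower and 0 higher, and of 76 mitosis genes 70 were lower and 1 higher. The head also lay at least 2-fold under the pool for 63 and 68 of these. Median log2 changes were -4.28 and -4.60, and with the same locus -4.66 and -4.26. The helicase subunit mcm7 (chromosome 14, 201291 to 212779) fell from 982, 754 and 975 CPM to 28 CPM (-5.01 ± 0.40, adjusted p = 0.000117). The sliding clamp pcna fell from 1202, 983 and 1436 CPM to 50.1 CPM. Ribonucleotide reductase RRM2 (1 of 2), which makes the building blocks of DNA, fell from 388, 284 and 472 CPM to 1.57 CPM (-7.92 ± 0.57). The mitotic kinase cdk1 fell from 134, 108 and 143 CPM to 2.94 CPM. The gene aurkb fell from 121, 103 and 138 CPM to 2.41 CPM. Every embryo sample lay well above the head in these genes. The exception in mitosis was ccna1, a cyclin of the germ line in mammals, at 0.252, 0.497 and 0.424 CPM and 1.68 CPM.

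Of 133 chromatin genes 75 fell and 25 rose. The DNA-bending protein hmga1a, among the largest read counts of the embryo, fell from 7356, 6979 and 8512 CPM to 176 CPM (-5.43 ± 0.43). The histone variant h2afvl fell from 1260, 991 and 1553 CPM to 50.5 CPM. The gene hmgb2b fell from 1257, 1186 and 1221 CPM to 78.3 CPM. The remodelling ATPases split, smarca2 rising from 9.99, 12.7 and 15.5 CPM to 114 CPM and smarca4 falling from 721, 848 and 694 CPM to 109.7 CPM. In the list of RNA-binding proteins of early growth (lin28, igf2bp, musashi and trim71) 7 of 12 were lower and 3 higher. Igf2bp1 fell from 59.2, 76.7 and 174 CPM to 0.524 CPM, igf2bp3 from 204, 264 and 289 CPM to 4.93 CPM, and trim71, a timing factor, from 352, 399 and 332 CPM to 33.9 CPM. The relative igf2bp2b rose from 12, 12 and 14.2 CPM to 143 CPM (3.49 ± 0.24), although the pool was at 76.9 CPM, so the head is not 2-fold above that reference.

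Most genes of ribosomes, ribosome assembly and splicing were lower. Of 84 ribosomal protein genes 82 were lower and 1 higher, with a median log2 change of -1.78. With library totals 78 were lower. Only 36 also lay at least 2-fold under the pool, against 71 of the 80 lower genes of ribosome assembly (95 tested). RPS6 fell from 2638, 2463 and 2949 CPM to 818 CPM (-1.71 ± 0.32). The gene rpl3 fell from 4139, 4228 and 5840 CPM to 1560 CPM. The exception, rps8b, rose from 1.79, 0.635 and 1.13 CPM to 25 CPM while rps8a fell from 2227, 2281 and 2658 CPM to 713 CPM. The nucleolar protein nop56 fell from 392, 535 and 481 CPM to 107 CPM. Splicing genes were lower for 106 of 145, with the core protein snrpb at 548, 475 and 689 CPM and 39.5 CPM (-3.85 ± 0.39). Mitochondrial ribosome genes followed, with 41 of 43 mrpl genes and 29 of 31 mrps genes lower and 0 and 0 higher.

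Translation factors had 59 of 98 lower and 11 higher. The elongation factor 1-alpha gene zgc:109885 held the largest read count of the embryo, 22950, 25772 and 29169 CPM, and fell to 6260 CPM (-2.05 ± 0.37). Elongation factor 2 copies crossed: eef2b fell from 9933, 9620 and 11497 CPM to 3076 CPM and eef2l2 rose from 47.7, 25.3 and 55.2 CPM to 699 CPM. Chaperones had 55 of 137 lower and 24 higher. The folding chamber subunit cct4 fell from 802, 783 and 969 CPM to 155 CPM, and the small muscle heat shock protein hspb6 rose from 2.66, 1.96 and 1.3 CPM to 103 CPM.

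Genes that pattern the embryo were lower. Of 48 tested hox genes 47 were lower and 0 higher, with a median log2 change of -4.85, or -4.41 with the 8 genes without a head read at their limit. Hox genes give cells their place along the body axis from hindbrain to tail. Their summed level was 1069, 1027 and 1074 CPM in the embryos, 59.6 CPM in the head and 56.6 CPM in the adult tail. The posterior gene hoxc10a (chromosome 23, 36135161 to 36149312) had 42.7, 46.5 and 47.4 CPM and 0.105 CPM, 1 read in the head. The anterior gene hoxb1b, of the hindbrain, fell from 57.2, 59.6 and 40.4 CPM to 0.944 CPM (-5.79 ± 0.51). Hoxb8a fell from 71.5, 42.5 and 60.8 CPM to 2.2 CPM (-4.72 ± 0.50). Other homeobox factors were lower for 103 of 172 and higher for 21; the hox partner pbx4 fell from 508, 452 and 490.3 CPM to 52.3 CPM, and SATB1 rose from 7.39, 5.69 and 6.05 CPM to 64.6 CPM.

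Among genes of neural progenitors, 42 of 57 fell and 2 rose. The stem cell factor sox2 fell from 155, 163 and 189 CPM to 14.9 CPM (-3.51 ± 0.33). The gene sox3 fell from 356, 334 and 481 CPM to 24 CPM (-4.02 ± 0.40). In the Notch pathway, which keeps progenitors from maturing, 38 of 54 were lower, with NOTCH1 (2 of 4) at 281, 222 and 226 CPM and 12.3 CPM. The her genes, grouped only by the stem of their symbol, were lower in 17 of 18, her8a falling from 98.2, 131 and 206 CPM to 1.89 CPM. In the somite and tailbud list 32 of 40 were lower. The ventral factor vox fell from 22.6, 32 and 13.4 CPM to 0.105 CPM, 1 read. The oligodendrocyte lineage relative olig4 had 22.9, 27 and 43.1 CPM in the embryos and no read in the head, at least 98.32-fold lower, and its head FPKM was 0.

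The signalling pathways of the embryo did not all move alike. Of 21 Hedgehog genes 16 fell and 3 rose: the ligand shha fell from 69.6, 75.6 and 69.8 CPM to 5.45 CPM (-3.71 ± 0.34), the receptor ptch1 from 142, 102 and 107 CPM to 35.4 CPM, and the effector gli2a from 121, 119 and 136 CPM to 10.6 CPM. Wnt genes were lower for 39 of 76, the receptor fzd7a falling from 367, 378 and 476 CPM to 16.5 CPM (-4.63 ± 0.38), and higher for 7. The Fgf list, with 20 lower and 12 higher of 58, turned to 17 and 18 with library totals. The Bmp and Tgf-beta list, with 32 and 29 of 98, lies near the shares of all genes and turned under several settings, to 24 lower and 33 higher with library totals. Within it the target id1 fell from 755, 671 and 932 CPM to 123 CPM and the matrix carrier ltbp3 rose from 15.6, 14.9 and 10.7 CPM to 92.4 CPM. Forkhead factors had 23 lower and 16 higher of 58, which became 18 and 20 with library totals. In them foxg1a, of the forebrain, fell from 36.2, 36 and 47.4 CPM to 6.82 CPM and its copy foxg1b rose from 4.11, 2.79 and 5.91 CPM to 52.8 CPM.

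Axon guidance genes, used to wire the nervous system, were near the shares of all genes, with 38 higher and 33 lower of 118, and 14 and 18 with the pool joined. The receptor epha4a fell from 147, 155 and 139 CPM to 52.3 CPM and epha8 rose from 1.12, 2.04 and 2.09 CPM to 22 CPM. Of 114 listed cadherins and protocadherins, adhesion proteins of brain and skin, 82 passed the filter. Of these 39 were higher and 14 lower, with FAT2 at 40.3, 45.9 and 28.6 CPM and 209 CPM. A gene that passed through the head alone had to be higher there, so the share is no measure of the family. The same limit holds for connexins of gap junctions, of which 38 of 44 listed genes passed. They had 20 higher and 6 lower, which became 4 and 4 among genes of at least 10 CPM. Their summed level fell from 1045, 947 and 1099 CPM to 509 CPM. The embryonic cx43.4 fell from 722, 706 and 764 CPM to 33.5 CPM (-4.45 ± 0.35) and cx43 rose from 79.2, 51.8 and 58.1 CPM to 226 CPM (1.84 ± 0.29). Endothelial genes had 14 higher and 5 lower of 37 (3 lower without embryo sample 1), with the clotting factor carrier vwf at 1.65, 1.02 and 0.452 CPM and 140.2 CPM. Neural crest and pigment genes had 22 lower and 8 higher of 47; the purine synthesis enzyme gart fell from 524, 463 and 376 CPM to 11.8 CPM (-5.27 ± 0.41).

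The hatching gland, a transient tissue that digests the egg envelope, had all 10 of its listed genes lower. The astacin protease he1a had 1513, 1448 and 442 CPM in the embryos and 0.105 CPM, 1 read, in the head. He1b, a close copy, had 460.3, 486 and 302 CPM and no read, at least 1324-fold lower, and the cathepsin ctsl1b had 1364, 1192 and 608 CPM and no read, at least 3357-fold lower. Embryo sample 3 was the lowest of the embryo samples in all of these genes, by less than the gap to the head. Their head FPKM was 0.095, 0 and 0. The median log2 change of the list was -14.70, or -10.66 with the 6 genes without a head read at their limit.

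Energy genes moved in different directions by pathway. Glycolysis genes were higher for 26 of 38 and lower for 4, or 2 without embryo sample 1. Pyruvate kinase pkm2a rose from 33.9, 36.6 and 36.7 CPM to 574 CPM (4.01 ± 0.23). Lactate dehydrogenase ldha rose from 76.4, 47.6 and 74.2 CPM to 344 CPM (2.38 ± 0.31). Nuclear genes of the respiratory chain were lower for 48 of 105 and higher for 14, but against the pool 6 were at least 2-fold lower and 13 at least 2-fold higher, and with the pool joined the calls were 5 and 12. The muscle forms COX6A2 and COX7A1, named after mammalian genes, rose from 0.196, 0.221 and 0.17 CPM to 89.4 CPM and from 1.01, 0.304 and 0.819 CPM to 37.8 CPM, and the general cox7a2 fell from 118, 92.1 and 143 CPM to 42.6 CPM. Of the 13 protein genes of the mitochondrial genome 2 were higher and 0 lower; mt-co1, with the largest read count of the head, was at 12511, 10843 and 13063 CPM and 15693 CPM and was not called. Sodium pumps, the main energy users of neurons, had 9 of 16 higher: the neuronal subunit atp1a3b rose from 19, 12.9 and 20.5 CPM to 715 CPM (5.36 ± 0.31), and atp1b3a fell from 238, 259 and 237 CPM to 32.5 CPM.

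Among genes that respond to hormones, food, light and stress, more were higher than lower in each list given here. Cytochrome P450 genes had 40 higher and 14 lower of 79, and nuclear receptors 39 and 15 of 70. The xenobiotic receptor nr1i2 rose from 8.23, 7.62 and 4.89 CPM to 61.4 CPM. Its target in mammals, the cyp3a relative cyp3a65, rose from 0.952, 0.967 and 0.141 CPM to 59.3 CPM. The retinoic acid receptor rarab fell from 86.2, 96.6 and 88.7 CPM to 23.3 CPM. In the circadian list 22 of 33 were higher, with the output factor dbp1 at 2.66, 2.76 and 1.95 CPM and 67 CPM and cry1b at 12.9, 10.8 and 8.02 CPM and 66.1 CPM. The hour of sampling is not in the labels and was not tested. Immediate early genes had 17 higher and 4 lower of 39, among them cebpd at 33.8, 30.4 and 22.5 CPM and 229.7 CPM. Solute carriers had 180 higher and 96 lower of 416. Their summed level went from 16219, 15164 and 17071 CPM to 10857 CPM, a fall near that over all tested genes. The glucose transporter slc2a1b rose from 7.05, 5.16 and 6.13 CPM to 88.3 CPM. Cilia genes, which belong to none of these, had 10 higher and 15 lower of 63, which became, with library totals, 19 and 6. Without embryo sample 1 the cilia genes higher numbered 6, and without sample 2 those higher and lower numbered 6 and 9.

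Grouped only by the stem of their symbol, 249 families had at least 10 tested genes. Those with the largest share higher were scn (13 of 13), the organic anion transporters slco (11 of 12), the metabotropic glutamate receptors grm (10 of 11) and the potassium channels kcna (10 of 11). None of these had a lower member. In the embryos the kcna genes summed to only 2.63, 2.76 and 5.2 CPM and the grm genes to 16, 10.3 and 13.2 CPM. A member that passed the filter through the head alone had to be higher, so these shares are no measure of the families. Those with the largest share lower were hoxb (15 of 15), hoxc (14 of 14), the proteasome lid and base genes psmd (17 of 17), rpl (43 of 43), mrpl (41 of 43) and the nuclear pore genes nup (18 of 19), with none higher. The transporter slco2b1 rose from 1.65, 0.939 and 0.819 CPM to 141 CPM, and the pore protein nup205 fell from 307, 258 and 300.1 CPM to 40.4 CPM.

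Markers of organs outside the head were also present in the head library. Yolk protein genes, made in the liver of females under estrogen, were among them: vtg2 had 0.196, 0.111 and 0.339 CPM in the embryos, 4698 CPM in the head and 14056 CPM in the adult tail, and vtg3 had 0.336, 0.248 and 0.198 CPM, 450.2 CPM and 1486 CPM. Egg genes did not accompany them in the head, since the egg coat gene zp3b was at 1.65, 2.46 and 1.5 CPM and 1.68 CPM (not called) but at 958 CPM in the tail, and the germ cell gene vasa had 7.87, 7.15 and 2.77 CPM in the embryos, no read in the head and 178 CPM in the tail. Of the exocrine pancreas list 19 of 23 were higher, with summed levels of 40.4, 39.1 and 32.8 CPM, 782 CPM in the head and 14039 CPM in the tail. The digestive protease ctrb1 had 0, 0 and 0.0283 CPM, 70.1 CPM in the head and 1170 CPM in the tail. The liver fatty acid carrier fabp10a had 0.588, 0.58 and 0.0283 CPM, 201 CPM and 527 CPM. The liver list itself split, with 29 higher and 17 lower of 63: the tyrosine enzyme hpda rose from 1.15, 1.57 and 0.367 CPM to 146 CPM and apolipoprotein APOB (1 of 3), which the embryo also makes around the yolk, fell from 738, 576 and 344 CPM to 37.5 CPM. Summed over the liver list, the level fell from 24039, 24035 and 14342 CPM in the embryos to 6905 CPM in the head. The intestinal chitinase chia.3 rose from 0.168, 0.0552 and 0.17 CPM to 209 CPM and fabp2 fell from 778, 869 and 758 CPM to 50.6 CPM. The ovary and germ cell list had 16 lower and 8 higher of 54, which turned to 4 and 7 with limma-voom. Its 29.6% lower is near the 30.4% of all tested genes. The part of these markers in the counts of the liver, pancreas and intestine lists was not tested.

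**Figure D4:**
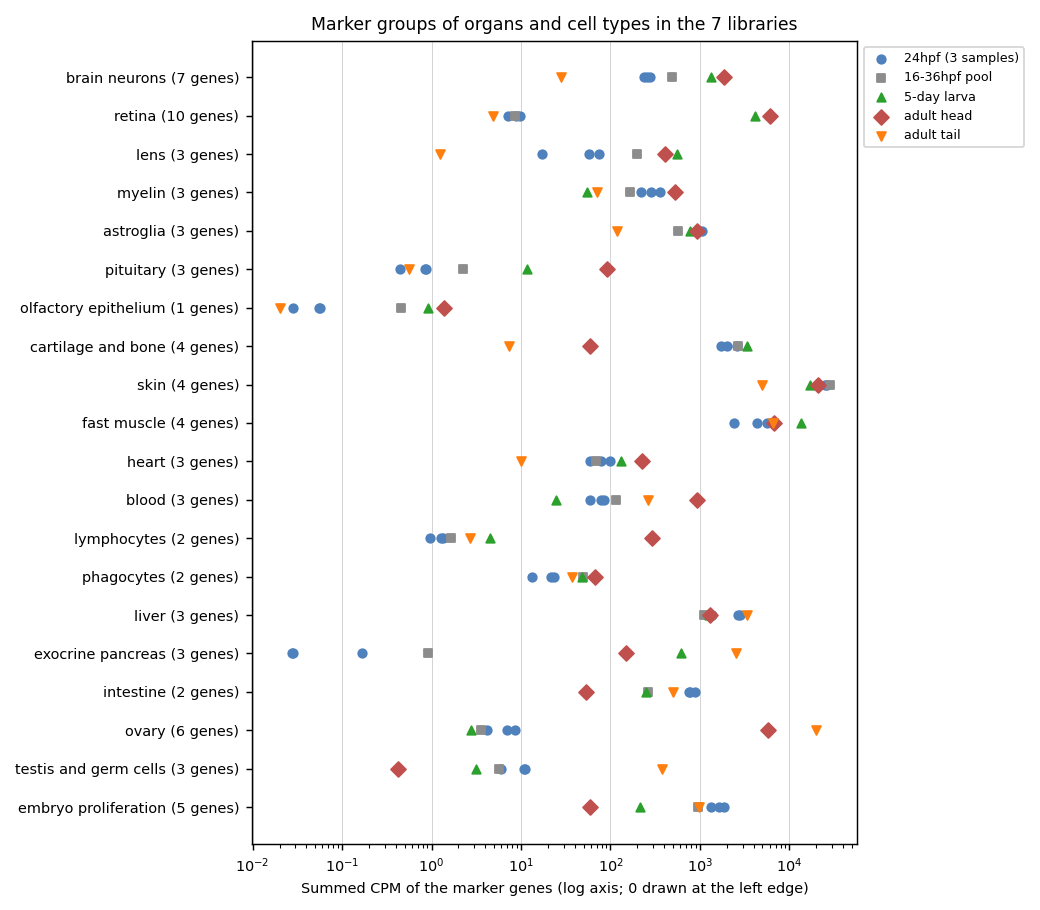
Summed level (CPM, log axis) of marker genes of each organ or cell type in the 3 24hpf samples (circles), the 16-36hpf pool (squares), the 5-day larva (upward triangles), the adult head (diamonds) and the adult tail (downward triangles). The head leads in neuron, retina, myelin, pituitary, heart, blood and lymphocyte markers, while the tail leads in pancreas, ovary and germ cell markers. The blood markers are the adult globins ba1 and hbaa1 and the gene alas2, without embryonic globins, so the lead in blood is that of adult globins.

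Genes were also separated by locus. The median log2 change over all genes with the same locus was 0.22. Of 11118 tested genes with a different locus 3302 were higher and 3802 lower; the difference from genes with the same locus was not tested. Keratins and crystallins had few members with the same locus, 6 and 7, with medians of 7.09 and 7.70 against 0.72 and 2.20 over all members. Other lists shifted as well. The circadian median was 4.77 with the same locus against 1.84, and that of pituitary hormones 3.66 against 6.42. The lin28 and igf2bp list had -5.15 against -2.98 and the hatching gland -16.67 against -14.70. Of their tested members 2 and 6 were at 0 reads in a group, where the fitted change goes beyond what the counts can measure. With these at their limit the medians over all members were -2.31 and -10.66. No such median was made for members with the same locus, so the size of these 2 shifts is not measured.

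**Figure D5:**
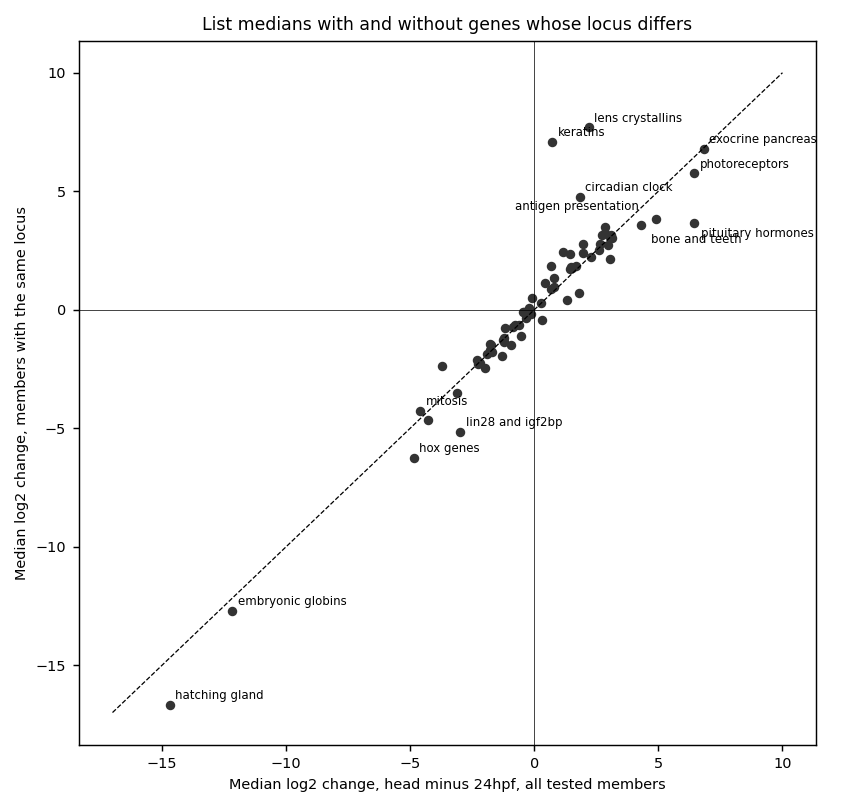
Median log2 change (head minus 24hpf) of each gene list with at least 5 same-locus members, over all tested members (horizontal) and over the members with the same locus in both annotations (vertical). The dashed line marks equal medians. Most lists lie near the line. Keratins (0.72 and 7.09), lens crystallins (2.20 and 7.70) and the circadian list (1.84 and 4.77) lie above it. Pituitary hormones (6.42 and 3.66), the lin28 and igf2bp list (-2.98 and -5.15) and the hatching gland (-14.70 and -16.67) lie below it.

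Genes without a read in the head need care. 616 tested genes had none, and 439 of them were called lower, 340 with the same locus. The deposited FPKM, computed apart from the counts, did not always share that 0. Of 418 such genes with both FPKM values, 157 had a head FPKM above 0 and 41 had at least 50% of the embryo mean. Among the 200 genes called lower that had no read in any of the 4 libraries counted on the larger annotation, 77 of 185 with FPKM had a head FPKM above 0. Over all 13121 called genes with both values, 37 had FPKM at least 2-fold the other way, 35 of them called lower. The gene zgc:158463 (ENSDARG00000070212), among the largest read counts of the embryo at 5815, 1132 and 12008 CPM, had 0.315 CPM in the head and 0.182 CPM in the pool, but FPKM of 2765 and 979. Its call was lost in limma on FPKM (adjusted p = 0.559), in limma-voom (adjusted p = 0.0675) and with the pool joined (adjusted p = 0.1). Counts and FPKM of this gene do not give the same picture. The ribosomal RNA gene 5_8S_rRNA (ENSDARG00000081218) had 304, 158 and 1081 CPM and no read in the head, with FPKM of 0 in both groups; its call was lost in limma-voom (adjusted p = 0.141). In the other direction 210 tested genes had no embryo read, and 196 were called higher. Such genes passed the filter through other libraries, and those that passed through the head could only be higher, so this share is no result.

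By read count the leading genes of both groups were partly shared. Beta-actin bactin2 had 7753, 7288 and 8473 CPM in the embryos and 7460 CPM in the head and was not called, as was zgc:92533, a keratin, at 4942, 6113 and 3368 CPM and 5914 CPM. The nucleotide kinase nme2b.1 rose from 962, 723 and 1236 CPM to 4935 CPM (2.34 ± 0.33). The heat shock cognate hspa8 fell from 7789, 7213 and 9809 CPM to 2236 CPM (-1.89 ± 0.37). Longer transcripts give more reads, so these ranks are of reads and not of molecules.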

How the data were processed

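Whole embryos and adult head were compared by mRNA sequencing. Read counts per gene were deposited by the authors, made with HTSeq 0.5.3p3 from TopHat 1.4.1 and Bowtie 0.12.7 alignments to Zv9, per the submitters' processing notes. FPKM values were deposited by the authors as well, from Cufflinks 1.3.0 per the same notes. No source used here gives the strand setting or the annotation release. Each biological 24hpf sample has 4 records (read files and technical replicates) but 1 deposited count table, used as it stands; how the authors joined its runs is not stated in the sources used here. Reads outside genes were left out of library sizes (10.4% to 13.3% at 24hpf, 13.7% in the head). Reads fitting several places, 14.2% to 27.6% at 24hpf and 30.2% in the head, were not counted on genes.

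All 7 libraries in 5 groups entered 1 edgeR 4.0.16 quasi-likelihood fit (R 4.3.3), after filterByExpr with a minimum count of 10, with TMM scaling and a prior count of 0.125. The 2 residual degrees of freedom come from the 24hpf samples, so the single head library is assumed to vary like them. P-values were adjusted (Benjamini-Hochberg) over all 21128 genes tested. A level of 0 was given a limit of 3 reads, 0.315 CPM in the head and 0.0279 CPM over the 24hpf samples; intervals and limits cover counting error only.

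The comparison and the gene lists were chosen with earlier results of these data known, and list patterns that caught unrelated symbols were corrected after values were seen. Named genes came from a rule: the 12 largest changes in each direction among called, symbol-named genes with the same locus, at least 20 CPM and 2-fold from the pool on the same side; the 5 largest in each direction with a different locus; up to 4 called members of each list in its main direction and 2 in the other, by level; the 8 most abundant genes per group by CPM; 2 members each of the leading families; opposed pairs of related genes; and organ markers. Alternatives were other scaling, filters, prior count, tools (DESeq2 1.42.0, limma 3.58.1), samples, thinned depth, and log2(FPKM + 0.1).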

Additional observations from a re-analysis of the deposited data

How the results depend on the processing

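Most counts of calls stayed within a factor of 1.5 of the main ones. With the pool joined to the 24hpf group, genes called lower fell to 3518, and those with the same locus to 1331. Fitting only genes with the same locus gave 3109 higher and 2983 lower, against 3472 and 2617 of these genes in the main fit. Fewer were thus higher and more lower, and the cause was not tested. Keeping genes of at least 10 CPM left 1913 higher and 1518 lower with the same locus, from fewer genes. Without 1 embryo sample, 5952 to 6996 genes were called higher and 5390 to 7034 lower, and with the same locus 3011 to 3581 and 2120 to 2869. The cause of the drop with the pool joined was not tested.

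In all 3 of these fits 5672 of the genes called higher and 5046 of those called lower kept their call. DESeq2 called 5726 higher and 5447 lower. Of 193 named genes none reversed under any alternative run. With the pool joined 17 lost their call: rpl3, rps8a, zgc:109885, sp7, mpx, ompb, atp2a1l, tnnt3b, acana, cox7a2, cryba1b, RPE65 (1 of 3), igf2bp2b, pomcb, zgc:158463, and2 and 5_8S_rRNA. In limma-voom 8 did, among them vox, vasa and OC90 (1 of 2), in limma on FPKM 6 of 189, among them atp2a1 and nppa, and in each other alternative at most 3. The uncalled elavl4 and mt-co1 were called higher with library totals, and elavl4 also in limma on FPKM. Counts of list members moved by over 1.5 times for 49 of 150 with at least 10 CPM, for 43 with the pool joined and for 29 with library totals. No paired analysis was possible because the head has 1 library, which shares no pairing with the embryo samples. Depth limits genes near 3 reads in the head, 0.315 CPM.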
